A study of Danio rerio with 186 samples.

Results

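The cells described here are 61 single cells that were sorted from the zebrafish pancreas in the sst1.1+ gate, the gate for delta cells. They were chosen as the cells whose sample title gives the sst1.1+ gate and the number 4, with at least 500 detected genes and at least 50000 reads outside the spike-in RNAs. Of 66 cells in this gate 61 passed, and of 186 cells in the whole series 174 passed. The 5 cells left out held 2445 to 15168 gene reads, while the kept cell with the fewest reads held 168889, so no cell lay near the read limit.

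All fish were taken at 30 days post fertilization and carried the transgenes Tg(ins:BB1.0L) and TgBAC(sst1.1:memEGFP), the first driven by the insulin promoter and the second expressing membrane EGFP from the sst1.1 locus on a BAC. The labels give normal growth as the only condition and name no treatment, sex or animal. The pancreas was dissociated with enzymes and single cells were read by Smart-Seq2, which reads whole transcripts of a single cell in a well. The other gates were ins+ cells, with 24 kept on plate 4 and 32 on plate 3, and 57 kept sst1.1+ ins+ cells on plate 3, where the plate is read from the number in the title. Since no animals are named, each gate on each plate is 1 sample, no test between gates was possible, and every interval below covers counting error only. The sst1.1+ cells filled rows C to H of plate 4 and the ins+ cells of that plate rows A to C. Only row C held both gates, so outside it the gate and the well row cannot be told apart. The gates were not compared within row C.

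Delta cells are the somatostatin cells of the pancreatic islet. Their peptide acts on neighbouring cells and restrains the release of insulin from beta cells and of glucagon from alpha cells. Zebrafish carry several somatostatin genes, and islet delta cells of the fish are known to divide between those that use sst1.1 and those that use sst2. In mice the homeobox factor Hhex is needed to form and maintain delta cells.

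The cells held 168889 to 895868 gene reads with a median of 556705, and 34186971 reads in all. The number of detected genes ran from 711 to 6524 with a median of 3616. With each cell thinned to 100000 reads the median was 3122, against 2461 in ins+ cells of plate 4 and 4203.5 in sst1.1+ ins+ cells. Levels are given as reads of a gene per 1000000 gene reads (CPM), either per cell or for the summed reads of a gate, and are not corrected for transcript length, so they are compared between cells and not between genes.

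Of the 61 cells, 2 stood apart from their label, and they set the lowest value of many genes and sums given below. Well C6 had sst1.1 at 1057 CPM and EGFP at 1.87 CPM, but 149563 CPM of gcga and 164575 CPM of gcgb, the preproglucagon genes. Well F8 held 1488 CPM of sst1.1 and 711 genes, and 747462 CPM of its reads lay in the row AC024175.4, whose identity the table does not give. In the other 60 cells that row held 24998 to 234575 CPM.

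The gate selects for sst1.1, so the levels of sst1.1 and of its reporter describe the sort and are no evidence of cell identity. In 59 of the 61 cells sst1.1 held 56797 to 508936 CPM, or at least 5% of gene reads, and over all 61 cells the median was 255477 CPM. The summed level was 253300 CPM in the sst1.1+ gate and 9411 CPM in the ins+ gate of the plate, a 26.9-fold difference. A single ins+ cell with 194330 CPM held most of the sst1.1 reads of the ins+ gate, in which the median cell had 38.6 CPM. Without that cell the log2 ratio was 8.32 in place of 4.75. The reporter EGFP, read from the transgene, held 1.87 to 13770 CPM with a median of 3809 in sst1.1+ cells, and 0 to 753 CPM with a median of 195 in the ins+ cells of plate 4.

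The other markers, chosen with earlier results of these data known, were present to unequal degrees. The secreted Dickkopf-family protein dkk3b held 1585 to 13299 CPM in 60 cells and 9 CPM in well F8, and it was 19.7-fold higher in the sst1.1+ gate than in the ins+ gate, with an interval of 19.04 to 20.3. The peptide YY gene pyyb held 129 to 4967 CPM in the same 60 cells and 0 in well F8, and it was 22.1-fold higher, with an interval of 20.6 to 23.7. Both genes were therefore present in nearly every sst1.1+ cell, including the glucagon-rich well C6, in which dkk3b held 4687 CPM and pyyb 1016 CPM. They were not particular to the gate. In thinned reads dkk3b was also detected in 62.5% of ins+ cells on plate 4 and 50% on plate 3, and pyyb in 20.8% and 25%. On plate 4 the median ins+ cell held 97.85 CPM of dkk3b and 0 of pyyb. The ins+ cell rich in sst1.1 held 2296 and 542 CPM, and another ins+ cell 2080 and 560 CPM. Both fold differences thus weigh a few high ins+ cells.

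The transcription factors of the marker list were lower. HHEX held 0 to 353 CPM with a median of 49.4 and had a read in 53 of 61 cells, and it was detected, at 5 or more of 100000 thinned reads, in 30 of 61 cells, or 49.2% with an interval of 36.1 to 62.3%. In the ins+ cells of plate 4 it was detected in 0 of 24 cells, which allows a share of up to 12.5% by a floor of 3 cells. The ETS-family factor elf3 held 0 to 1648 CPM with a median of 56.9, and it was detected in 31 of 61 cells, or 50.8% with an interval of 37.7 to 63.9%. No elf3 read fell in the ins+ gate of the plate, so with a floor of 3 reads for that gate elf3 was at least 941-fold higher.

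**Figure D1:**
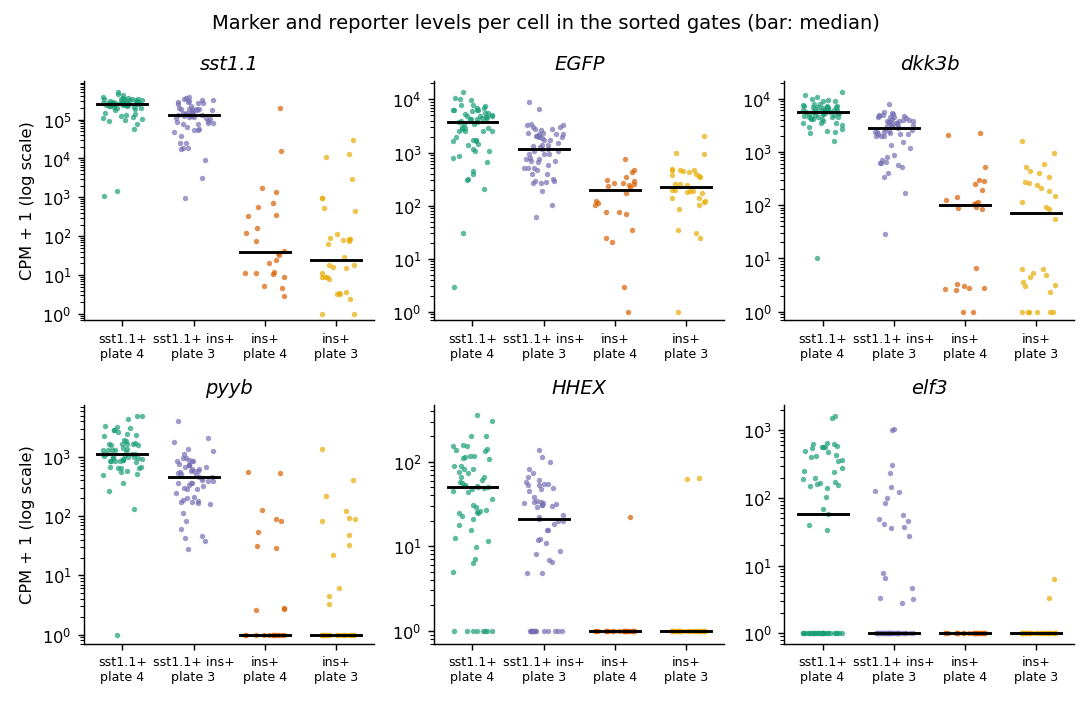
Level of sst1.1, the EGFP reporter and 4 further delta-cell markers (CPM + 1, log scale) in each kept cell of the 4 gate and plate groups; each point is a cell and the bar is the median. The sst1.1+ cells have the highest median of each gene, and elf3 lies at 0 in 28 of them and HHEX in 8.

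The sst1.1+ ins+ cells of plate 3 lay between for all 5 markers, with summed levels of 144400 CPM for sst1.1, 2835 CPM for dkk3b, 582 CPM for pyyb, 28.3 CPM for HHEX and 61.1 CPM for elf3. The corresponding summed levels in the sst1.1+ gate were 253300, 5842, 1464, 67.9 and 225 CPM. Both plate and gate differ between these cells, which cannot be told apart.

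Several hormone genes besides sst1.1 were read from the same wells, and they fell into a graded and an all-or-nothing kind. Another somatostatin gene, sst1.2, was graded: it was read in all 61 cells at 89.997 to 231800 CPM with a median of 12673, and 41 cells held at least 10000 CPM, or 1% of gene reads, which is 67.2% with an interval of 53.998 to 78.7%. The 2 lowest cells were wells F8 and C6, and the other 59 held 1390 CPM or more. In the ins+ cells of plate 4 the median was 18.97 CPM and 1 cell held 11366 CPM.

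A further somatostatin gene, sst2, was all or nothing. It held 22799 to 137559 CPM in 7 cells, or 11.5% with an interval of 4.74 to 22.2%, and at most 430 CPM in the remaining 54. The median over all 61 cells was 12.7 CPM, beside 12.9 CPM on plate 4 and 15.8 CPM on plate 3 for ins+ cells. All 7 sst2 cells also had at least 56797 CPM of sst1.1 and at least 37471 CPM of sst1.2. The highest sst1.2 level in a cell without sst2 was 48146 CPM.

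Glucagon transcripts were also all or nothing. The same 9 cells held gcga at 54345 to 149563 CPM and gcgb at 54666 to 164575 CPM, which is 14.8% of cells with an interval of 6.98 to 26.2%. In the other 52 cells gcga reached 396 CPM at most and gcgb 177 CPM, so no cell lay between. At least 76540 CPM of sst1.1 was present in 8 of the 9, the exception being well C6. The gcga to gcgb ratio in the 9 cells ran from 0.872 to 1.29.

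A few other genes were higher or more often detected in the glucagon cells, among genes picked out after their values were seen. The opioid-like neuropeptide precursor pnoca held 7273 to 42613 CPM in the 9 cells and at most 3615 CPM in the other 52. It was not confined to the 9 cells: it was also detected in 1 of the 6 cells that held sst2 without glucagon and in 21 of the remaining 46. The homeobox gene arxa, which in mice specifies alpha cells, had reads in 9 of the 9 cells and in 1 of the 52, with a highest level of 69.9 CPM. The pyruvate carboxylase gene pcxb was detected in 9 of the 9 cells, in 0 of the 6 cells that held sst2 without glucagon and in 0 of the remaining 46. The cationic amino acid transporter slc7a2 was detected in 9, 1 and 1 cells of these sets, and the homeobox gene mnx1 in 4, 0 and 0. HHEX ran the other way, with 1 of 9, 4 of 6 and 25 of 46 cells.

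Taking 1% of gene reads as the mark, 30 cells held sst1.1 with sst1.2 and no other of these hormones, 14 held sst1.1 alone, and 5 held sst1.1, sst1.2 and sst2. Glucagon came with sst1.1 and sst1.2 in 4 cells, with sst1.1 alone in 3 cells, and with sst1.1, sst1.2 and sst2 in 1 cell. The cell with glucagon alone was well C6, and well F8 held none of these hormones at 1%. Well G2 held sst1.1, sst1.2 and sst2 together with 204734 CPM of gip, the incretin gene, and it supplied 99.1% of all gip reads of the gate. In 1 further cell ins held 10467 CPM beside sst1.1. In the 7 sst2 cells the median number of genes was 5692, against 3449 in the other 54, and the median ratio of gene to spike-in reads was 90.7 against 39.8. The same medians for the 9 glucagon cells were 4420 genes, against 3479.5 in the other 52, and a ratio of 69.5, against 39.4. Whether such wells held more than 1 cell was not tested.

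The insulin gene was otherwise low. It held 43.7 to 10467 CPM with a median of 135 in sst1.1+ cells, and 182040 to 444285 CPM in the ins+ cells of plate 4. The 2 ranges did not overlap, but the ins+ gate selects for this gene, so the gap describes the sort. Low insulin reads were present in all 61 cells, as were ghrelin reads, at 14.01 to 1480 CPM of ghrl with a median of 54.7. The ghrl median in ins+ cells was 60.1 CPM on plate 4 and 82.2 CPM on plate 3, and the part of reads shared between wells was not tested. Low gcga behaved differently: its median was 17.8 CPM in sst1.1+ cells but 447 CPM and 405 CPM in ins+ cells of plates 4 and 3.

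**Figure D2:**
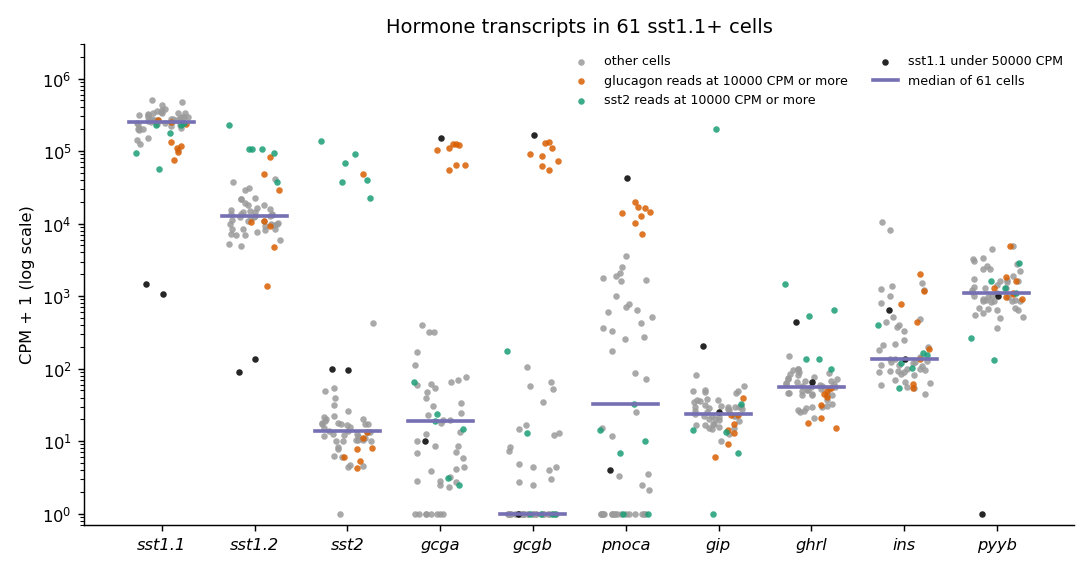
Level of 10 peptide genes (CPM + 1, log scale) in each of the 61 sst1.1+ cells; points are cells, coloured by the hormone reads they hold, with the cell that holds glucagon and sst2 drawn as a glucagon cell, and bars are medians. The sst2, gcga and gcgb points split into a high and a low set with an empty range between, whereas sst1.2 is spread continuously.

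Other genes were detected in most sst1.1+ cells and few ins+ cells. By the share of cells with 5 or more thinned reads, the widest gaps over both ins+ groups belonged to itga6b, cpne4a and srd5a2b. The integrin subunit itga6b was detected in 54 of 61 cells, or 88.5%, against 4.17% of ins+ cells on plate 4 and 3.12% on plate 3. It held 0 to 1075 CPM with a median of 253. The copine cpne4a, a calcium-dependent membrane-binding protein, was detected in 53 of 61 cells against 4.17% and 0%. The steroid 5-alpha-reductase gene srd5a2b was also detected in 53 of 61 cells, at 0 to 1833 CPM with a median of 332, against 0% and 9.38%. These genes were not particular to the gate: in the sst1.1+ ins+ cells itga6b was detected in 75% of cells, cpne4a in 64.3% and srd5a2b in 75%.

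The remaining genes of the 15 widest gaps were sst1.2, DNAJA4, pyyb, jun, hspa4a, atf3, pbxip1b, pbx3b, slc38a2, tpst1, cd164l2 and bdnf. Among them, pbx3b encodes a PBX homeobox factor and was detected in 77.0% of cells against 8.33% on plate 4. The tyrosylprotein sulfotransferase tpst1 was detected in 67.2% against 4.17%. Without the 1 ins+ cell rich in sst1.1, the log2 ratios of summed levels of itga6b, cpne4a and tpst1 were 8.47, 7.94 and 7.50 in place of 4.75, 4.76 and 4.25. The neurotrophin bdnf was detected in 68.9%, with an interval of 55.7 to 80.1%, against 8.33%, and in 48.2% of the sst1.1+ ins+ cells. DNAJA4, hspa4a, jun and atf3 belong to the stress lists described below.

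The 15 widest gaps in the other direction, detected less often than in ins+ cells of either plate, belonged to pcxb, abhd15a, zgc:153845, SNCG (2 of 2), gcga, insm1b, dgkaa, rgs8, gstp1, cd164, rab3c, rcan2, nell2a, nkx6.2 and slc7a2. The lipase-like gene abhd15a was detected in 4.92% of sst1.1+ cells against 83.3% of ins+ cells on plate 4. The exocytosis GTPase rab3c was detected in 0 of 61 cells, which by a floor of 3 cells allows a share of up to 4.92%, against 66.7% of ins+ cells. The homeobox factor nkx6.2 had 0 reads in the whole gate, so with a floor of 3 reads for the gate it was at least 1056-fold lower than the 92.7 CPM of ins+ cells. gcga stands among genes detected less often although its summed level was higher, at 13240 CPM against 5711 CPM, and 1 ins+ cell held 110896 CPM. Without the 15 cells rich in glucagon or sst2 and that ins+ cell, the log2 ratio of gcga was -3.95, and that of pcxb was -8.92.

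Genes were also ranked by reads, leaving out hormones, ribosomal proteins, mitochondrial rows, EGFP and rows named for a clone or locus. The row AC024175.4 was among those left out, with a median of 108701 CPM per cell. The highest of the rest were malat1, a nuclear noncoding RNA, at 16450 CPM, hsp70l at 8505 CPM and hsp90aa1.2 at 6402 CPM. Next came the granin scg3 at 6038 CPM and dkk3b at 5842 CPM, as summed levels not corrected for length. In ins+ cells of plate 4 malat1 held 19130 CPM and scg3 7885 CPM, so these were at similar levels in both gates, which hsp70l, hsp90aa1.2 and dkk3b were not. The ppdpfb gene, a relative of a pancreatic progenitor differentiation factor, was lower, at 2346 CPM against 9666 CPM.

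Set against the ins+ cells of the same plate by summed reads, 2088 genes had at least 50 CPM in either gate. Of these, 334 were over 2-fold higher in sst1.1+ cells, or 16%, and 265 were over 2-fold lower, or 12.7%, with 1 CPM added to both levels, and the median log2 ratio was 0.03. These shares are the background for the gene lists that follow. With hormone reads taken out of the total the median was -0.19 and the counts became 441 higher and 620 lower, of 3261 genes that then reached 50 CPM. Against the ins+ cells of both plates they were 322 and 156, of 1976 genes. The counts are therefore not compared without the number of genes tested.

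Cytosolic chaperones and other heat-shock genes, which refold proteins after stress, were often higher. Of 32 measured list members 21 were over 2-fold higher, none was over 2-fold lower, and the median log2 ratio was 1.85. The inducible Hsp70 gene hsp70l held 14.9995 to 38273 CPM with a median of 6592 in sst1.1+ cells, the lowest being well F8, and 20.9 to 5680 CPM with a median of 295 in ins+ cells, so the gates overlapped. Its summed level was 14.1-fold higher, with an interval of 13.7 to 14.4. Reads of hsp70l, hsp70.1, hsp70.2 and hsp70.3 are uncertain among these near-identical copies. The inducible Hsp90 gene hsp90aa1.2 held 154 to 15780 CPM with a median of 5772, against 2.34 to 986 CPM in ins+ cells, and it was 19.2-fold higher. The cochaperones bag3 and DNAJA4 were 62.2-fold and 18.4-fold higher, whereas the constitutive chaperone hspa8 was 1.49-fold higher. Against both plates the log2 ratio of bag3 was 5.01 in place of 5.86.

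Immediate-early genes respond within minutes to stimulation and to tissue dissociation. Of 32 measured members 18 were over 2-fold higher and 1 lower, with a median log2 ratio of 1.42. With hormone reads taken out of the total 19 of 38 were higher and 3 lower, with a median of 0.884. The AP-1 subunit jun held 0 to 3560 CPM with a median of 884, and was detected in 54 of 61 sst1.1+ cells against 2 of 24 ins+ cells. It was 77.6-fold higher, with an interval of 66.8 to 90.7, and its log2 ratio of 6.18 was 5.55 against the ins+ cells of both plates. The stress factor atf3 held 0 to 3623 CPM with a median of 496 and was 61.7-fold higher, with an interval of 53.3 to 71.9. Its log2 ratio of 5.85 was 6.53 against both plates, 6.55 without the ins+ cell rich in sst1.1 and 6.99 without the cells rich in glucagon or sst2. The phosphatase gene dusp2 was the lower member, at 106 CPM against 344 CPM. The sst1.1+ ins+ cells of plate 3 held 332 CPM of jun and 246 CPM of atf3 in summed reads. The part of dissociation in these levels was not tested.

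Genes of endoplasmic reticulum folding and stress are the machinery through which hormone precursors pass. Of 25 measured members 13 were over 2-fold higher and 1 lower, with a median log2 ratio of 1.103. With hormone reads taken out of the total 11 of 34 were higher and 2 lower, with a median of 0.644. The chaperone hspa5, also called BiP, held 18.7 CPM in well C6 and up to 10225 CPM elsewhere, with a median of 1871, and was 9.61-fold higher, with an interval of 9.28 to 9.95. The stress-response factor ddit3 was 6.69-fold higher, at 153 CPM against 22.9 CPM, and xbp1 was 2.53-fold higher. Of the 40 measured genes of ER translocation and early transport, 3 were higher and 2 lower. The proteasome list had none of 23 members past 2-fold in either direction and the cytosolic ribosomal list none of 79.

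**Figure D3:**
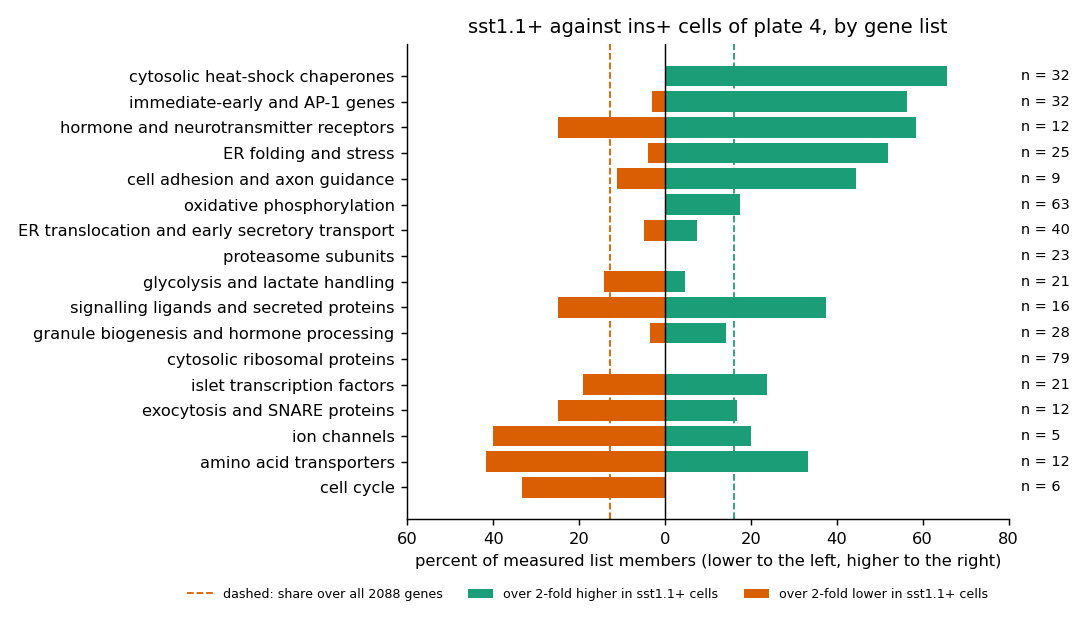
Percent of measured members that, in each list with at least 5 measured members other than hormones, delta-cell and beta-cell markers, were over 2-fold higher (right) or lower (left) in the summed reads of sst1.1+ cells than of ins+ cells of plate 4; n is the number of measured members and dashed lines are the shares over all genes tested. Among the lists drawn the heat-shock list has the longest bar to the right, with 21 of 32 members, and the ribosomal and proteasome lists have none.

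Among islet transcription factors 5 of 21 measured members were over 2-fold higher and 4 lower, with a median log2 ratio of -0.15. Higher were elf3, HHEX, pbx3b, the forkhead factor foxa2 and the ETS factor etv5a, with foxa2 at 93.7 CPM against 26.2 CPM. Lower were nkx6.2, mnx1, insm1b and nkx2.2a, with mnx1 at 3.86 CPM against 79.6 CPM and nkx2.2a at 61.98 CPM against 140 CPM. The pancreas factor pdx1 had no read in well C6 and reached 3952 CPM, with a median of 1243 in sst1.1+ cells, and its summed level was 0.928-fold that of ins+ cells, so it did not separate the gates.

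The genes that build and process hormone granules are read beside the shares over all genes, 16% higher and 12.7% lower. Of 28 measured members 4 were over 2-fold higher, near that share, and 1 lower, below it. The median log2 ratio was 0.02, near the 0.03 over all genes. The secretogranin scg2b, the granin chga, the granin-like peptide precursor VGF and the signal peptidase subunit spcs3 were higher, with scg2b at 1767 CPM against 486 CPM and VGF 10.2-fold higher. The prohormone convertase pcsk1 was lower, at 325 CPM against 1229 CPM. Exocytosis genes gave 2 of 12 members higher, cplx2l and syt4, and 3 lower, rab3c, vamp1 and rims2a. Voltage-gated and other channels gave 1 of 5 higher, cacna2d2a, and 2 lower, scn3b and gria2b. Against the ins+ cells of both plates gria2b, vamp1 and rims2a were no longer over 2-fold lower, at log2 ratios of -0.68, -0.97 and -0.90.

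Among receptors 7 of 12 measured members were over 2-fold higher and 3 lower, with a median log2 ratio of 1.13. This depended on the total: with hormone reads taken out 6 of 15 were higher and 5 lower, with a median of 0.006. Against the ins+ cells of both plates 5 of 13 were higher and 3 lower, with a median of 0.97. gfra1a, a coreceptor for ligands of the GDNF family, was detected in 37 of 61 cells and was 66.6-fold higher, with an interval of 43.5 to 108. Without the ins+ cell rich in sst1.1 its log2 ratio was 6.81 in place of 5.39. Its partner tyrosine kinase ret was 2.12-fold higher, at 277 CPM against 131 CPM. The natriuretic peptide receptor npr1a was detected in 30 of 61 cells against 0 of 24 and was 48.02-fold higher, with an interval of 29.5 to 84.2. The leptin receptor lepr, the PACAP receptor adcyap1r1a, the adrenergic receptor adra2da and the growth factor receptor fgfr2 were 2.30-fold to 3.73-fold higher. The glucagon receptor gcgra was lower, with 6 reads in the whole gate, or 0.175 CPM against 73.6 CPM, as were the histamine receptor HRH2 and the VIP receptor vipr2.

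Among signalling ligands and secreted proteins 6 of 16 measured members were over 2-fold higher and 4 lower, with a median log2 ratio of 0.06. Beside dkk3b these were the Wnt inhibitor wif1 at 536 CPM against 161 CPM, bdnf, pdgfab, mfge8b and cxcl12b. The cxcl12b count came from 1 cell, which held 99.8% of its reads. Lower were vegfab at 162 CPM against 482 CPM, and cxcl14, nell2a and fstl1b, the last at a log2 ratio of -1.61 that was -0.90 against both plates.

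Adhesion and axon guidance genes gave 4 of 9 measured members higher, epcam, cdh4, nrxn1a and cdh2, and 1 lower, ncam1b, with a median log2 ratio of 0.90. Beta-cell markers gave 0 of 11 higher and 7 lower, with a median of -3.52, in a gate sorted apart from ins+ cells. Cell cycle genes gave 0 of 6 higher and 2 lower, hmgb2a and stmn1a. The log2 ratio of hmgb2a was -1.01, and it was -0.55 against both plates. In 7 of 12 alternatives 1 member of the list was lower in place of 2. Alternatives that measured more members gave more lower ones. With hormone reads taken out of the total 7 of 11 were lower and 0 higher, with a median of -1.54. With at least 10 CPM required 22 of 35 were lower and 1 higher, with a median of -1.27. With no limit on the level 30 of 70 were lower and 6 higher, with a median of -0.689. The summed list level was 918 CPM in sst1.1+ cells, against 1725 CPM in ins+ cells of plate 4 and 714 CPM on plate 3. The median cell held 428, 383 and 312 CPM, and the highest cell 8164, 13041.5 and 7662 CPM. Summed levels of this list thus weigh a few high cells, and the median sst1.1+ cell was not lower.

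The metabolic lists are read beside the background shares of 16% higher and 12.7% lower. Oxidative phosphorylation gave 11 of 63 members over 2-fold higher, near the background share, and none lower, which is below it. Its median log2 ratio was 0.48, against 0.03 over all genes. With hormone reads taken out of the total 7 of 66 were higher and 0 lower. Against the ins+ cells of both plates 7 of 63 were higher and 0 lower. In the main comparison all 11 ratios lay between 2.03 and 2.71, as for the respiratory chain gene ndufa4l at 337 CPM against 130 CPM. Glycolysis and lactate genes gave 1 of 21 higher, pgk1, which is below the background share. The 3 lower members, near the background share, were pgam1b, pcxb and g6pcb. The log2 ratio of pgam1b was -1.16, and it was -0.43 against both plates. The glucokinase gene gck held 888 CPM against 729 CPM. Amino acid transporters split, with 4 of 12 higher and 5 lower: the SNAT-family members slc38a2, slc38a3b and slc38a5b were 12.6-fold, 9.45-fold and 5.75-fold higher, and the arginine and leucine carriers slc7a2, slc7a8b and slc43a2b were lower, at ratios of 0.325, 0.254 and 0.285. Without the cells rich in glucagon or sst2 the log2 ratio of slc7a2 was -5.98 in place of -1.61.

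Markers of non-endocrine cells were low in most cells. The summed level of 20 matched acinar markers had a median of 2.38 CPM and stood above 190 CPM in 1 cell, well F8, at 15408 CPM. Endothelial and erythroid markers had medians of 0 CPM and highest cells of 108 and 66.1 CPM. Leukocyte markers had a median of 87.3 CPM and 4 cells at 1541 to 3404 CPM. Ductal and progenitor markers had a median of 490 CPM against 91.3 CPM in ins+ cells, with the keratin genes krt8 and krt18 as the 2 members over 2-fold higher. Mesenchymal markers had a median of 3.76 CPM, neural and glial markers 217 CPM, and liver and gut markers 70.5 CPM. Their part in the results above was not tested.

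Cell-to-cell variation was measured as the coefficient of variation (CV, the SD over the mean) of thinned reads across the 61 cells. Counting error was not taken out, so each CV includes it, and it weighs most in genes with few reads. Over 1705 genes with a mean of at least 50 CPM the median CV was 1.15, and 1114 genes, or 65.3%, had a CV over 1. The median fell with the level, from 1.27 over the 1312 lowest genes, at 50 to 200 CPM, to 0.708 over the next 313 and 0.430 over the 80 highest. The same median was 1.24 for ins+ cells on plate 4, 1.21 on plate 3, and 0.858 for sst1.1+ ins+ cells. Over the 1301 genes measured in both gates, 88.3% had a higher CV in sst1.1+ than in sst1.1+ ins+ cells, and of the 1258 genes shared with ins+ cells of plate 4 it was 41.9%. At equal reads the sst1.1+ ins+ cells had more detected genes, 4203.5 against 3122, and the part of this in the CV was not tested.

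The genes most variable for their level included hormones, immediate-early genes and heat-shock genes. Among the 1008 genes detected in at least 50% of cells, ranked by the excess of log2 CV squared over genes of similar level, the 12 highest were pnoca, ins, sst1.2, b2m, atf3, bag3, fosab, hsp70.1, mcl1a, jun, hmgn2 and mt-cyb. pnoca had a CV of 2.46 and ins of 2.70. The 3 highest cells held 10467, 8075 and 2021 CPM of ins, against a median of 135 CPM. The MHC class I light chain b2m held 0 to 6119 CPM with a median of 410 and a CV of 1.27. For the mitochondrial gene mt-cyb the CV of 1.07 was 0.480 without wells C6 and F8, and its highest cell held 35710 CPM. The sst1.2 value of 1.49 was 0.589 without the 15 cells rich in glucagon or sst2. The symbols fosab and scg5 stand on more than 1 row of the table, and 1 row of each is meant.

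Genes of respiration and translation made up much of the steadiest set, which also held scg5 and sec61g. The 12 least variable genes were scg5, sec61g, si:dkey-151g10.6, ndufa6, cox8a, USMG5, cox6c, ndufa2, C24H11orf65, rps25, RPL29 and rps26l. The ribosomal gene RPL29 held 291 to 993 CPM with a median of 629 and a CV of 0.297, and the cytochrome oxidase subunit cox6c had a CV of 0.481. Over all 1705 genes the median excess was 0, as the measure sets, so about as many genes lie above as below. By list, 28 of 32 immediate-early genes varied more than genes of their level, as did 20 of 25 ER folding genes, 12 of 13 ligands and 21 of 32 heat-shock genes. This was not particular to stress genes: it held for 18 of 27 granule genes, 13 of 19 islet transcription factors and 8 of 10 amino acid transporters. Lower counts were 13 of 38 for ER translocation, 8 of 22 for the proteasome, 6 of 62 for oxidative phosphorylation and 2 of 79 for ribosomal genes. The marker dkk3b, with a CV of 0.42, lay below the running median of genes ranked near it by level. The CV of sst1.1 was also 0.42, but its running median rests on genes at far lower levels. The gate also selects for sst1.1, so its CV is not read as steadiness.

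**Figure D4:**
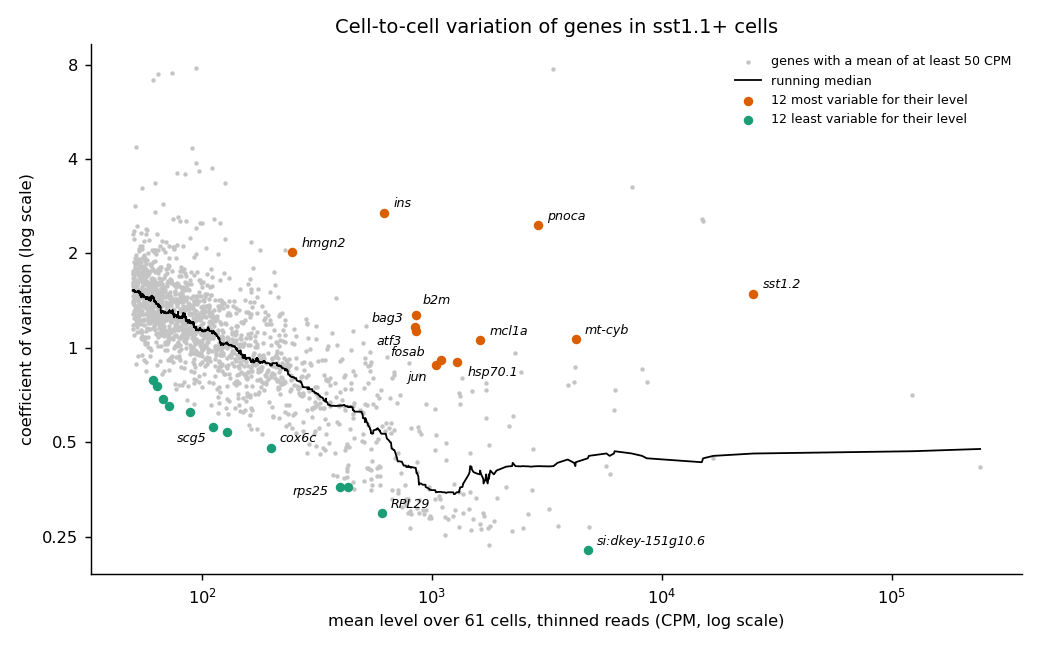
Coefficient of variation of each gene over the 61 sst1.1+ cells against its mean level (thinned reads, CPM; both axes logarithmic), with the running median of genes ordered by level. The 12 most variable genes for their level, among them pnoca, ins and sst1.2, lie above the line and the 12 least variable, among them RPL29 and cox6c, below it.

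The stress genes moved together across cells, and the reporter with them. Summed over the list, heat-shock genes held 2151 to 68389 CPM per cell with a median of 29859, immediate-early genes 62.998 to 23738 CPM with a median of 8644, and ER folding genes 135 to 21304 CPM with a median of 7533. All 3 lowest sums were those of well F8, and the lowest of the other 60 cells were 6388, 1819 and 1808 CPM. Over the 61 cells, which share a plate and differ in depth, Spearman's rho was 0.74 between the heat-shock and immediate-early sums and 0.77 between the heat-shock and ER sums. Within single well rows these ran from 0.19 to 0.89 and from -0.07 to 0.95. Without wells C6 and F8 the lowest row values were -0.21 and -0.61, with 5 of 6 rows above 0 for each. The heat-shock sum had a rho of 0.14 with gene reads and -0.22 with detected genes. With the ratio of gene to spike-in reads rho was -0.343 for the heat-shock sum and -0.155 for the immediate-early sum. It was -0.335 for the ER sum and -0.343 for EGFP. The part of this ratio in the shared movement was not tested. The 6 well rows had medians of 25163 to 37967 CPM for the heat-shock sum.

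EGFP had a rho of 0.74 with the heat-shock sum and of 0.11 with sst1.1. Without wells C6 and F8 the values were 0.71 and 0.02, and without the 15 cells rich in glucagon or sst2 they were 0.62 and -0.32. The gate selects for sst1.1, and the part of that selection in the rho of EGFP and sst1.1 was not tested. Within single well rows the rho of EGFP and the heat-shock sum ran from 0.36 to 0.81 and lay above 0 in 6 of 6 rows, but among the 46 cells left without glucagon or sst2 it ran from -0.54 to 0.94 and lay above 0 in 4 of 6. Among 1008 genes detected in 50% or more of cells, likeness to EGFP over cells was ranked after the data were seen. The ubiquitin gene ubb came first, with a rho of 0.70, and hsp90aa1.2 and hsp70.3 had values of 0.67 and 0.65. All of these belong to the heat-shock list, whose sum is given above. The median gene had a rho of 0.13 with EGFP, and sst1.1 ranked 550th. In the sst1.1+ ins+ cells the rho of EGFP and the heat-shock sum was 0.42 over 57 cells.

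Of the other markers, elf3 followed the heat-shock sum with a rho of 0.57, and HHEX with one of 0.12. The gene most like dkk3b among 1007 was pyyb, at 0.51. For dkk3b and sst1.1 rho was 0.02 in sst1.1+ cells and 0.73 in sst1.1+ ins+ cells. The gates select on sst1.1, which held 56797 CPM or more in 59 of the sst1.1+ cells. In the sst1.1+ ins+ cells it ran from 940 to 383405 CPM. The part of these ranges in the 2 values was not tested. The ranking for dkk3b was also chosen after the data were seen. These values describe the cells and carry no test.

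**Figure D5:**
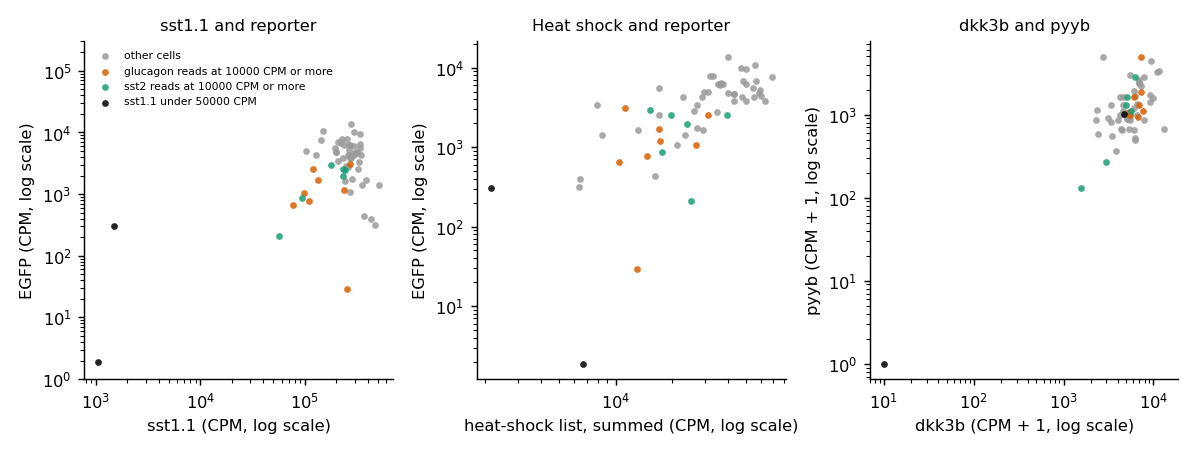
Levels per cell in the 61 sst1.1+ cells (CPM, logarithmic axes): EGFP against sst1.1, EGFP against the summed heat-shock list, and pyyb against dkk3b; colours mark cells rich in glucagon or sst2 and the 2 cells low in sst1.1. EGFP is higher in cells with a higher heat-shock sum (rho 0.74) and is spread at all levels of sst1.1 (rho 0.11).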

How the data were processed

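Single cells of enzymatically dissociated pancreas were read by Smart-Seq2 on a NextSeq, per the labels' protocols. Trim Galore, HISAT2, featureCounts and the build GRCz11 are named in the submitters' processing notes. Not given in the sources used here: versions, settings, annotation and strand. The authors deposited raw counts per gene and cell, with 31953 genes, 92 spike-in RNAs and an EGFP row. Spike-ins, 5.61% of reads, stayed out of totals, and 0 columns lacked a sample.

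Levels are CPM of counts, with exact Poisson intervals. Ratios carry conditional binomial intervals and shares of cells Clopper-Pearson intervals, at 95%. Cells were thinned to 100000 reads for detection and CV. No doublet caller was run. Scripts ran in Python 3.11.15, and TMM factors came from edgeR 4.0.16. The code was tested on simulated data.

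Members, markers and lists were chosen with earlier results of these data known. The 30 lists hold 1384 entries, of which 85 were not found in the table and 14 stood on several rows and were left out. Named genes were the 15 with most reads, apart from the rows left out of that ranking. Also named were the 15 detected more and 15 less often than in both ins+ groups, and the 12 most and 12 least variable. The marker list was named too, and in each list those over 2-fold and the highest.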

Additional observations from a re-analysis of the deposited data

How the results depend on the processing

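The 2 counts of genes over 2-fold apart moved most with the level required. With at least 10 CPM in place of 50 they were 1686 higher and 1292 lower of 7548 genes, and with no limit 4646 and 2415 of 31954, against 2088 genes in the main setting. Taking hormones out of the total gave 620 lower of 3261 genes, and setting the cells against the ins+ cells of both plates gave 156 lower of 1976. The median number of detected genes was 2094 when 5 reads were required in place of 1. All 34 other recomputed values of the 5 main results moved by less than 1.5 times or less than the SD over cells. Of 1689 recomputed log2 ratios of named genes 87 moved by more than 1.5 times, and 3 others that were over 2-fold apart changed direction. These 3 arose without the cells over 5% in other hormones, 15 sst1.1+ cells and 1 ins+ cell: gcga became -3.95, gcgb -4.38 and gip -0.11. The 3 changes of direction came with the removal of the cells that held those reads. Leaving out the ins+ cell with sst1.1 was chosen after seeing the data and gave 339 higher and 275 lower. The 2-fold list counts differed beyond 1.5 times in 34 of 434 recomputed values, 17 of them with the limit of 10 CPM. Of the genes named by detection 9 of 15 and 10 of 15 were named again when 1 read sufficed. No paired analysis was possible because no result rests on a test and the replicate numbers only name cells. The depth limits genes under about 50 CPM, where the thinned reads of a cell are few.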
